A study of Mus musculus with 11 samples.

Results

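The miR-30 family was followed in mouse oviduct after bacterial lipopolysaccharide (LPS), a glycolipid from the Gram-negative cell surface that Toll-like receptor 4 senses. Its members were taken by probe name, as the probes for mmu-miR-30a, mmu-miR-30b, mmu-miR-30c, mmu-miR-30d and mmu-miR-30e, which gave 5 of the 566 mouse miRNA probes counted. The rule leaves passenger strands out, and a search by name found none of this family among the probes. All 5 were detected, meaning above the background of the negative control probes, and were so in each of the 11 lanes. The animals were female CD1 mice, an outbred strain, aged 6 to 8 weeks. They were injected intraperitoneally on the day of estrus with PBS carrying no LPS (control, 3 mice), 2 µg of LPS (low dose, 4 mice) or 10 µg (high dose, 4 mice) from E. Coli serotype 055:B5, and the oviducts were taken 24 h later. The design text plans 4 mice per treatment, of which 1 control animal has no lane in the deposited counts.

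MicroRNAs are short RNAs that guide silencing complexes to messenger RNAs, and they choose their targets mainly through the seed, bases 2 to 8 of the mature strand. The miR-30 members share a seed and so share most predicted targets, while they are made from separate genes. The family is abundant in many epithelia and in muscle, and is known for holding down genes of epithelial to mesenchymal transition. In human cells, miR-30a is known to target Beclin 1, an autophagy protein, miR-30b and miR-30d to target the glycosyltransferase GALNT7, and miR-30e to target the SUMO-conjugating enzyme UBC9. In mouse liver, miR-30c is known to lower the microsomal triglyceride transfer protein.

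The mature strands are shown to let the seed and the bases outside it be compared between members. Of those printed, miR-30c fell and miR-30e rose at the high dose, while miR-30a did not pass the test given below. RefSeq sequences (GRCm38.p6) were matched for 3 of the 5 members, and miR-30b and miR-30d are named only. Capitals mark the seed.
miR-30a: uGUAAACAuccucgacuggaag
miR-30c: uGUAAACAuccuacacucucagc
miR-30e: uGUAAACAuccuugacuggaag
The seed was identical in these 3. Counted from 1 at the 5′ end, miR-30e differed from miR-30a by the single substitution C13U. miR-30c differed from miR-30a at 5 of 22 bases (C13A, G14C, G18C, G19U and A20C), all of them outside the seed, and it has 23 bases. Whether a probe also counted its closest relative was not tested.

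The family is encoded in 3 places in the genome. Mature miR-30a maps to chr1:23272274-23272295 on the plus strand, and its nearest miRNA gene in the RefSeq table is Mir30c-2, whose mature strand is at chr1:23291714-23291736 (plus). The other copy, Mir30c-1, gives the same mature miR-30c at chr4:120769584-120769606 (minus), and mature miR-30e lies at chr4:120772660-120772681 (minus). Both of these chromosome 4 genes overlap Nfyc, which encodes a subunit of the transcription factor NF-Y, while no other annotated gene overlaps the chromosome 1 strands. Mir30e also overlaps Mir30f, its nearest miRNA gene, and Mir30c-1 has Mir30e as its nearest. Mir30b and Mir30d are each other's nearest miRNA gene. The miR-30c probe cannot tell its 2 loci apart. miR-384-5p carries the same seed, and its probe counted 14 to 32 and was above background in 0 of 11 lanes.

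Barcodes were counted on the nCounter mouse miRNA assay v1.5, which ligates a tag to each miRNA and counts fluorescent barcodes without amplification. Total mouse miRNA counts were 451323 to 684771 per lane, and each mouse had its own lane. Member counts ran from 326 (miR-30e) to 6924 (miR-30c), and every member in every lane was at least 4.08 times that lane's background bound. Counting error alone would give coefficients of variation of 1.40% (miR-30c) to 4.48% (miR-30e), against 6.33% to 10.8% between mice of a group. Sample numbers, which also name the lanes, run in group order, and the effect of lane and that of LPS cannot be told apart. B2m, an mRNA reference probe, counted 643 to 931 in controls, 1608 to 4010 at the low dose and 4517 to 5052 in 3 high dose mice, while high dose mouse 2 counted 924.

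At the high dose, 4 of the 5 members passed the test against control. The 3 that rose were miR-30b, miR-30d and miR-30e, and miR-30c fell, with fold changes of 1.35 to 1.55. The test was the quasi-likelihood F-test of edgeR over all detected miRNAs, with a threshold of 0.05 on the adjusted p. Of all detected miRNAs, 18.0% passed in this comparison, 10.2% higher and 7.80% lower. Counts below are normalized counts, meaning barcode counts scaled between lanes by the trimmed mean of M-values method (TMM).

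mmu-miR-30c was the member that fell. Its normalized counts were 6530, 6835 and 7147 in the control mice, 5324, 4233, 4879 and 4579 in the low dose mice and 4877, 4857, 4143 and 3761 in the high dose mice. Every LPS mouse was below every control mouse, and the doses overlapped. The mean fell from 6837 ± 309 (SD, n = 3) in controls to 4409 ± 551 (SD, n = 4) at the high dose, a 1.55-fold drop (log2 change -0.63 ± 0.11 SE, edgeR adjusted p = 0.00191).

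mmu-miR-30b had the largest fold rise of the 5. Its normalized counts were 2339, 1863 and 2354 in controls, 2613, 2705, 3086 and 2993 at the low dose and 3097, 3560, 3067 and 3634 at the high dose. Every LPS mouse was above every control mouse. The mean went from 2185 ± 279 (SD, n = 3) to 3340 ± 299 (SD, n = 4) at the high dose, a 1.53-fold rise (log2 change 0.61 ± 0.12 SE, edgeR adjusted p = 0.00251).

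mmu-miR-30d, whose gene neighbours that of miR-30b, had the smallest spread among controls relative to its mean. Its normalized counts were 1921, 1868 and 1923 in controls, 2505, 2138, 2390 and 2500 at the low dose and 2767, 2441, 2735 and 2484 at the high dose. All LPS mice lay above the control range. The high dose mean was 2607 ± 168 (SD, n = 4) against 1904 ± 30.9 (SD, n = 3), a 1.37-fold rise (log2 change 0.45 ± 0.09 SE, edgeR adjusted p = 0.00404).

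mmu-miR-30e had the lowest counts of the 5 probes. Its normalized counts were 428, 370 and 418 in controls, 479, 481, 580 and 548 at the low dose and 491, 551, 578 and 565 at the high dose. The groups did not overlap between control and either dose. The high dose mean was 1.35-fold the control mean (log2 change 0.43 ± 0.10 SE, edgeR adjusted p = 0.0124). This call ended without control mouse 2 (edgeR adjusted p = 0.0574) and with no filter on low counts (edgeR adjusted p = 0.116). It also ended with both scalings to mRNA reference probes and with scaling to the positive controls. Its adjusted p ran from 0.00414 to 0.900 over 28 alternatives. Under the same alternatives the high dose call of miR-30b ended 2 times, and those of miR-30c and miR-30d ended 3 times each.

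mmu-miR-30a did not pass. Its normalized counts were 2396, 2231 and 2488 in controls, 3162, 2390.4, 2859 and 3067 at the low dose and 2901, 2642, 3310.0 and 2623 at the high dose. The high dose mice lay above the control range, and low dose mouse 2 lay within it. The difference at the high dose was 0.27 ± 0.12 SE on the log2 scale (edgeR adjusted p = 0.127), with a 95% interval of 0.015 to 0.53 that spans the change of miR-30e. Whether miR-30a changed less than the other members was not tested.

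**Figure D1:**
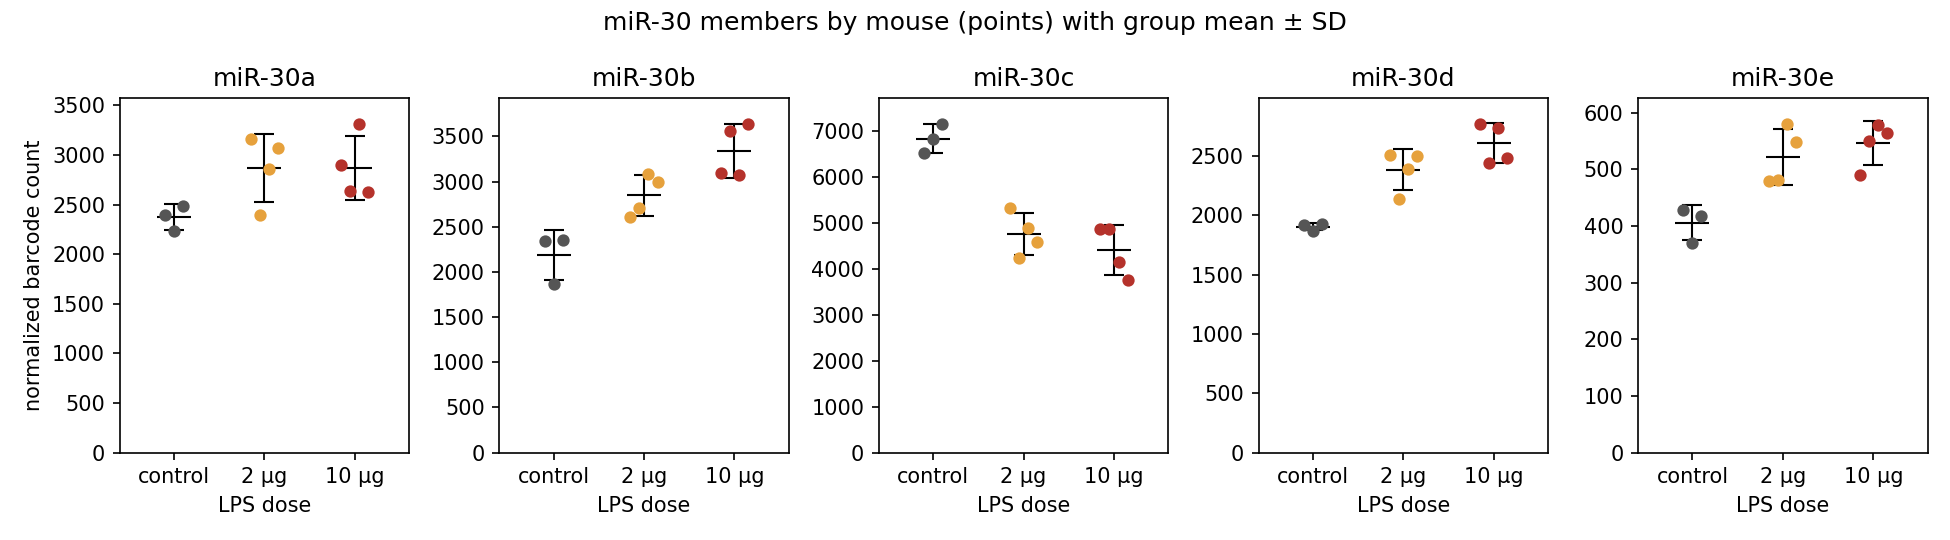
Normalized barcode counts (vertical axis, from 0) of the 5 members against LPS dose, with 1 point per mouse and the group mean ± SD in black. miR-30c falls from 6837 in controls to 4409 at 10 µg, while miR-30b rises from 2185 to 3340, with no overlap between controls and high dose mice in any of the 5 panels.

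The groups did not overlap between control and high dose for 5 of 5 members, against 27.3% of all detected miRNAs. The median log2 change of the 5 was 0.43, beside -0.03 over all. Ranked from the highest change at the high dose, miR-30b was 17th, miR-30d 22nd, miR-30e 23rd, miR-30a 42nd and miR-30c 200th. The high dose mouse with the low B2m count had 4857 normalized counts of miR-30c, 3560 of miR-30b, 2642 of miR-30a and 551 of miR-30e, each between the lowest and highest of its group. Its miR-30d count, 2441, was the lowest of the group, and 4 members passed with or without that mouse.

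At the low dose, 1 of the 5 members passed, miR-30c, against 5.85% of all detected miRNAs (3.41% higher and 2.44% lower). It fell from 6837 ± 309 to 4754 ± 463 (SD, n = 3 and 4), a log2 change of -0.52 ± 0.11 SE (edgeR adjusted p = 0.0195). The call ended without control mouse 2 (edgeR adjusted p = 0.0651) or 3 (0.0629), and without mouse 2 (0.0521) or 4 (0.0614) of the low dose, while its log2 change stayed between -0.58 and -0.47 in the 11 fits that left out a mouse. It also ended with upper-quartile scaling (edgeR adjusted p = 0.0720), with scaling to the mRNA reference probes or the positive controls, and without low dose mice 3 and 4 and high dose mouse 2, the lanes with the highest count of the negative control NEG_C (0.155). Over all 28 alternatives its adjusted p ran from 0.000912 to 0.903.

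The other members stood above control at the low dose without passing. miR-30b differed by 0.38 ± 0.12 SE on the log2 scale (edgeR adjusted p = 0.0639), miR-30d by 0.32 ± 0.09 and miR-30e by 0.36 ± 0.10 (edgeR adjusted p = 0.0548 for each). miR-30a differed by 0.28 ± 0.12 (edgeR adjusted p = 0.159). At an unadjusted p under 0.05 the test named all 5, against 27.3% of all detected miRNAs. DESeq2 called 4 of the 5 at this dose, 3 higher and 1 lower, against 13.8% of the miRNAs to which it gave an adjusted p. The groups did not overlap for 4 of 5 members, against 23.9% of all detected miRNAs. The median log2 change of the 5 was 0.32, beside -0.0015 over all.

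Across the 3 groups at once, 4 members passed, all but miR-30a, against 13.7% of all miRNAs. miR-30c had an edgeR adjusted p of 0.00534, miR-30b of 0.00931, miR-30d of 0.0135 and miR-30e of 0.0299. Without control mouse 2 or control mouse 3 the count was 2. Without the 3 highest NEG_C lanes it was 1, while the high dose count was still 4 and the low dose count 0.

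Between the doses, 0 of the 5 members passed in edgeR, against 0.488% of all detected miRNAs. At an unadjusted p under 0.05 the count was 0 against 13.2%, and in DESeq2 0 against 1.95%. miR-30b was nearest, 0.23 ± 0.11 SE higher at 10 µg than at 2 µg on the log2 scale (95% interval -0.00080 to 0.46, edgeR adjusted p = 0.371). miR-30c differed by -0.11 ± 0.11 (interval -0.34 to 0.12), miR-30d by 0.13 ± 0.09 (-0.056 to 0.31) and miR-30e by 0.07 ± 0.09 (-0.14 to 0.27). miR-30a differed by -0.00034 ± 0.11 (-0.24 to 0.24). The order of the means was control, low dose, high dose for miR-30b, miR-30d and miR-30e and the reverse for miR-30c, with the doses overlapping in all 5. Both doses were set against the same 3 control mice, so the changes at the 2 doses are not independent of each other.

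**Figure D2:**
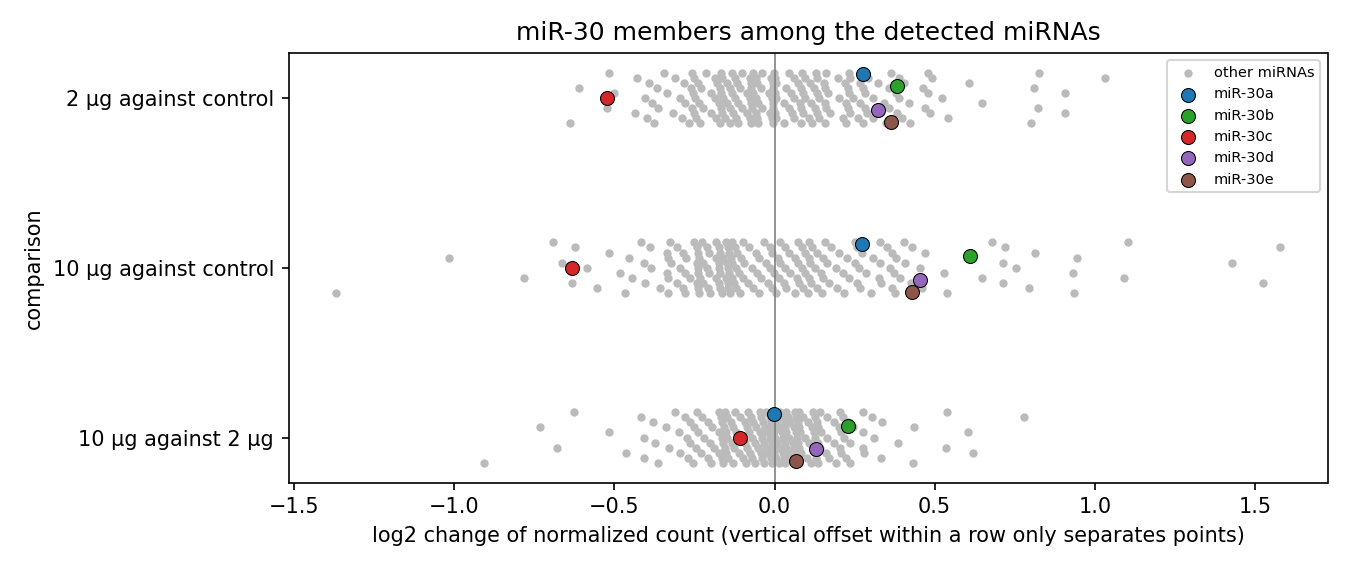
Log2 change of the normalized count (horizontal axis) for all detected miRNAs in grey and the 5 members in colour, in 3 comparisons. miR-30c lies near the lower end against control at both doses, at -0.52 and -0.63. Between the doses the members lie from -0.11 (miR-30c) to 0.23 (miR-30b).

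The composition of the family shifted, with miR-30c a smaller share of it in LPS mice, while its summed counts lay in overlapping ranges in the 3 groups. The normalized counts of the 5 members added up to 13704 ± 586 (SD, n = 3) in controls, 13377 ± 968 at the low dose and 13771 ± 486.2 at the high dose (SD, n = 4 each). Their share of all mouse miRNA counts was 2.36% ± 0.125, 2.36% ± 0.128 and 2.45% ± 0.0798 in the same order. The groups overlapped in both measures.

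Within the family counts, miR-30c made up 48.0%, 51.9% and 49.9% in the control mice. It made up 37.8%, 35.4%, 35.4% and 33.5% in the low dose mice and 34.5%, 34.6%, 29.9% and 28.8% in the high dose mice. Every LPS mouse was below every control mouse by more than the counting error, since the 95% Wilson interval of each share reached at most 0.910 percentage points to either side, for counting error only. This share is one of barcodes, as probes can differ in efficiency, and it does not depend on the scaling between lanes.

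The other 4 members took up the remaining counts. As the shares in a mouse are parts of the same total, those of these 4 together must rise where that of miR-30c falls. miR-30b went from 15.9% ± 1.58 of family counts in controls to 21.4% ± 1.90 at the low dose and 24.3% ± 2.81 at the high dose. miR-30a went from 17.3% ± 0.332 to 21.4% ± 1.23 and 20.8% ± 2.19, and miR-30d from 13.9% ± 0.423 to 17.8% ± 0.386 and 18.9% ± 1.09. miR-30e went from 2.96% ± 0.170 to 3.91% ± 0.348 and 3.97% ± 0.374. Added together, the normalized counts of these 4 were 6866 ± 465 in controls, 8624 ± 623 at the low dose and 9361 ± 224 at the high dose (SD).

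**Figure D3:**
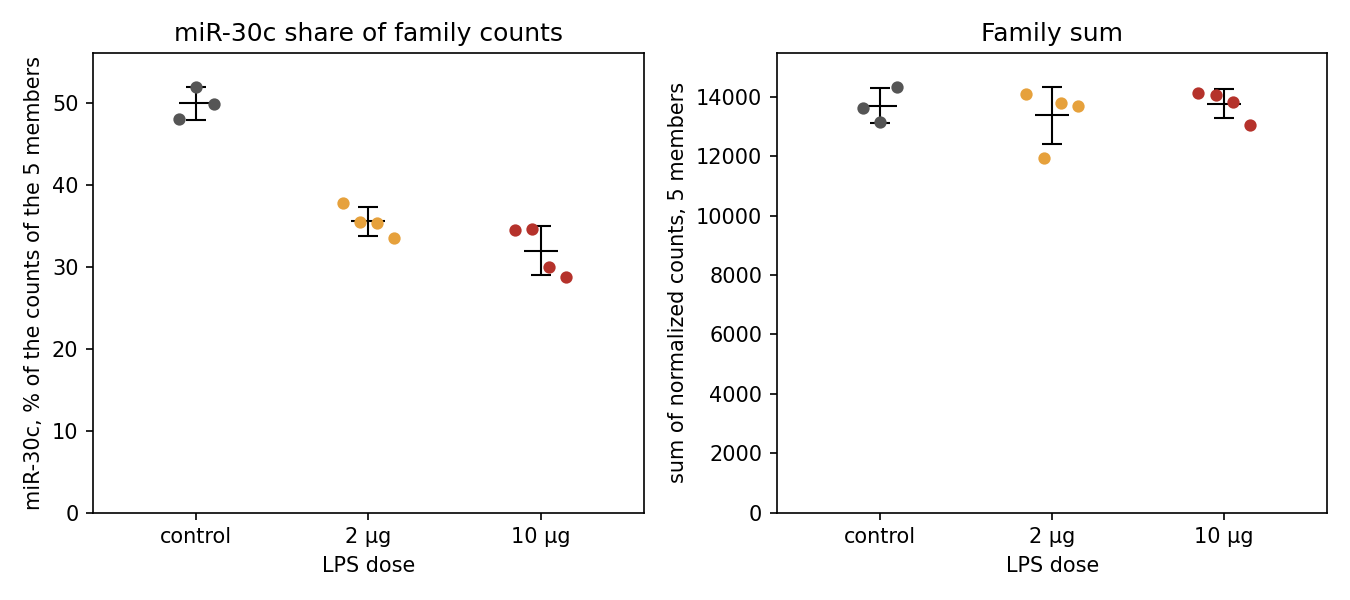
Left, miR-30c as a percent of the barcode counts of the 5 members, and right, the sum of their normalized counts, against LPS dose, with 1 point per mouse and the group mean ± SD in black (vertical axes from 0). The share falls from 49.9% in controls to 32.0% at 10 µg, while the sums of 13704 and 13771 overlap.

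Ratios between members within a mouse cancel the scaling between lanes. In all 4 pairs that include miR-30c, the ratio in every LPS mouse lay outside the control range, at both doses. For miR-30b, miR-30d and miR-30e this follows from their normalized counts, which lay above the control range while those of miR-30c lay below it. It also follows for miR-30a at the high dose, but not at the low dose, where miR-30a overlapped with control. All 4 pairs share miR-30c and are not independent of each other. In the 6 pairs among the other members the groups overlapped at both doses. Over all pairs of detected miRNAs the groups did not overlap in 24.1% at the low dose and 28.7% at the high dose. A difference of the member pairs from these shares was not tested. Between the 2 doses the ratio overlapped in all 10 pairs, and 6.75% of all pairs did not overlap.

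The ratio of miR-30b to miR-30c moved most. On the log2 scale it was -1.65 ± 0.20 (SD, n = 3) in controls, -0.74 ± 0.19 at the low dose and -0.40 ± 0.25 at the high dose (SD, n = 4 each). The linear ratio was 0.358, 0.273 and 0.329 in the control mice, and it was between 0.491 and 0.654 in low dose mice and between 0.635 and 0.966 in high dose mice. The log2 ratio of miR-30a, whose gene lies beside Mir30c-2, to miR-30c rose by 0.80 at the low dose and 0.91 at the high dose. The log2 ratio of miR-30c to miR-30e, whose gene lies beside Mir30c-1, fell by 0.89 at the low dose and fell by 1.07 at the high dose. The shifts in the 6 other pairs were at most 0.12 at the low dose and 0.35 at the high dose, and the largest was miR-30a against miR-30b. The neighbours miR-30b and miR-30d shifted against each other by 0.07 and 0.16.

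**Figure D4:**
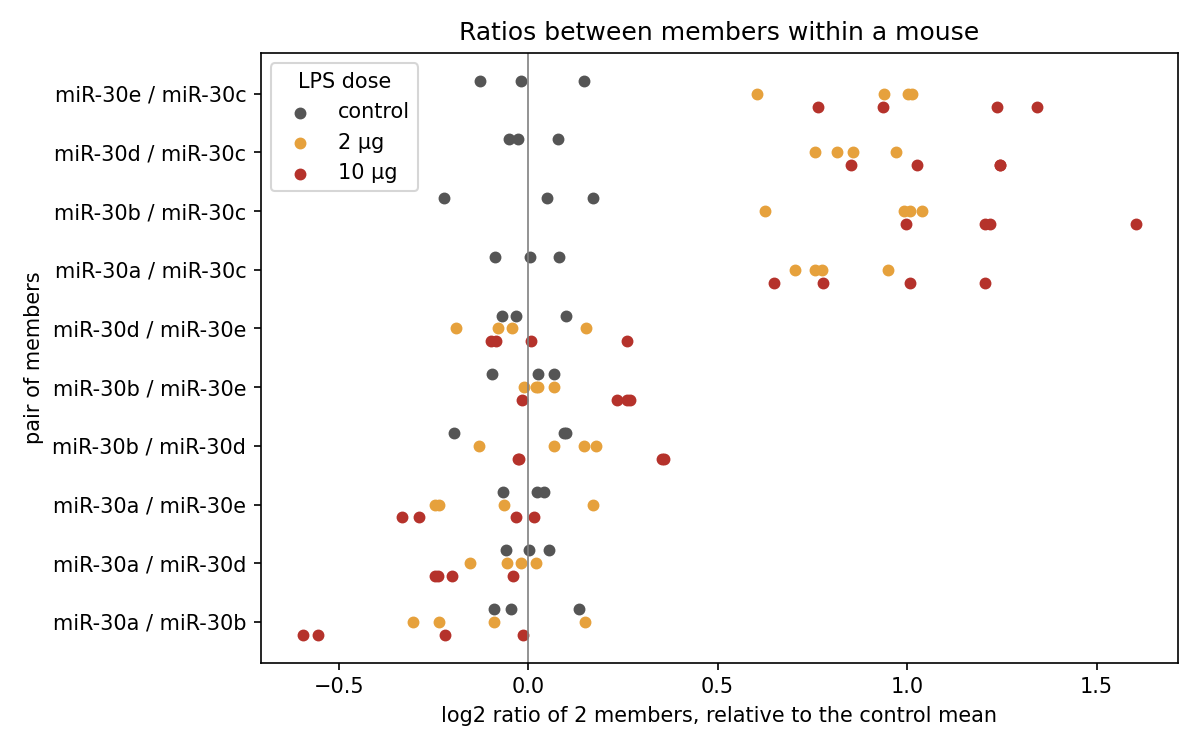
Log2 ratio of 2 members in each mouse, relative to the control mean of that pair (horizontal axis), for the 10 pairs, with 1 point per mouse coloured by LPS dose. The upper 4 pairs have miR-30c in the denominator and their LPS mice stand clear of the controls, by 0.91 to 1.26 log2 units on average at 10 µg, while the groups overlap in the lower 6 pairs.

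The size of each member's change depended on the scaling, and the direction of miR-30c against control did not under the 8 other scalings run. Its log2 change was between -0.72 and -0.22 at the low dose and between -0.95 and -0.45 at the high dose. miR-30b, miR-30d and miR-30e stood above control under all 8 at both doses, and miR-30a under all but scaling to the 4 mRNA reference probes, where it stood at -0.086 ± 0.35 SE at the high dose. That scaling includes B2m and moved the median of all detected miRNAs at the high dose to -0.39. Scaling to Actb, Gapdh and Rpl19 alone moved that median to 0.13, and scaling to the positive controls moved it to 0.12. Under the former, miR-30c stood at -0.45 ± 0.24 and miR-30b at 0.77 ± 0.26, and no member passed (edgeR adjusted p of 0.384 and 0.0619). Under the latter, miR-30b alone passed, at 0.76 ± 0.23 (edgeR adjusted p = 0.0463), and miR-30c stood at -0.47 ± 0.20 (edgeR adjusted p = 0.220). The standard errors were larger than with TMM, where that of miR-30c was 0.11.

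**Figure D5:**
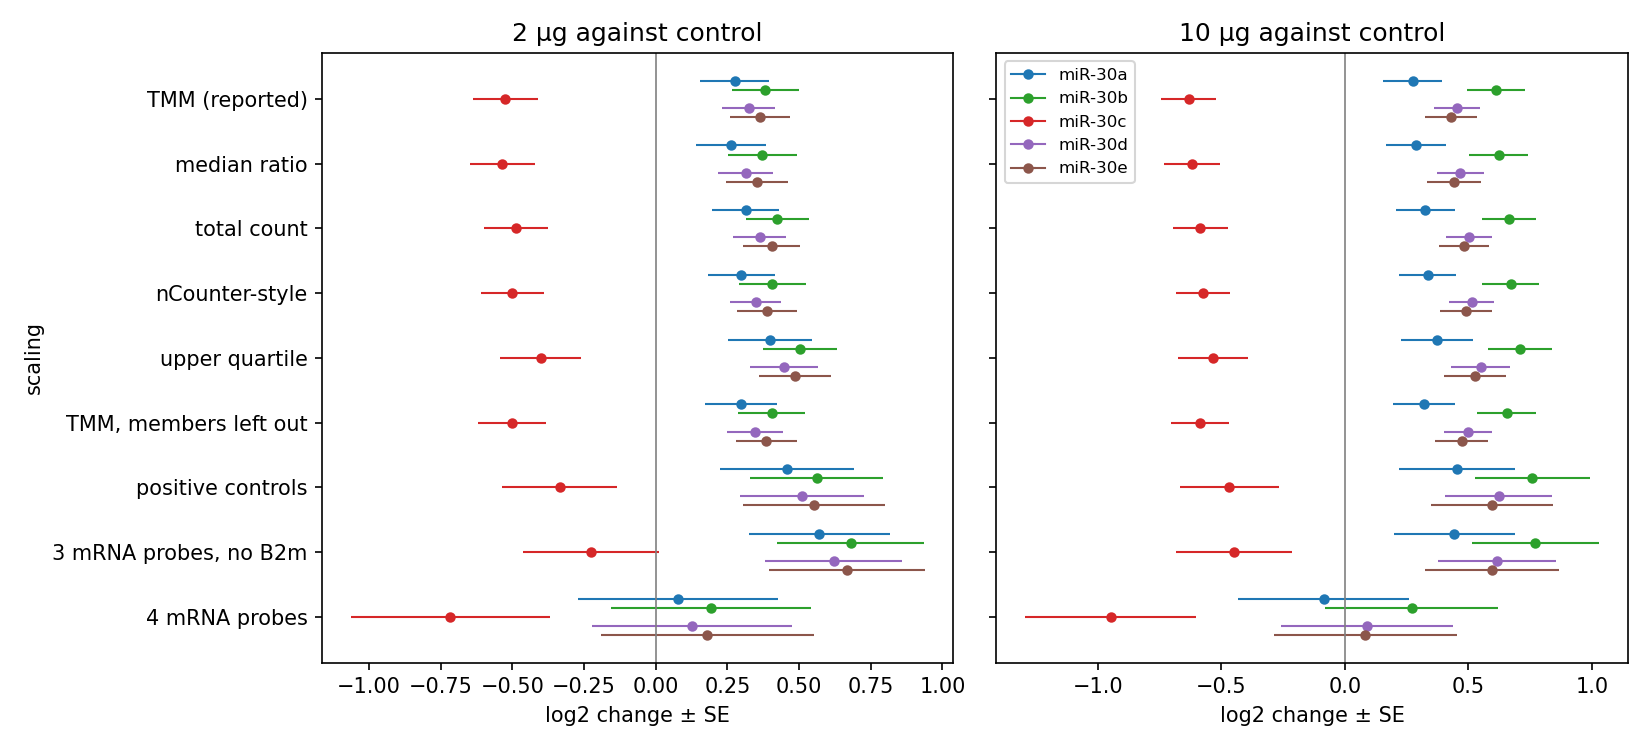
Log2 change ± SE of each member against control (horizontal axis) under TMM and 8 other scalings (rows), at 2 µg on the left and 10 µg on the right. miR-30c is below 0 in every row, and the other members are above 0 except miR-30a at 10 µg with 4 mRNA probes, at -0.086.

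Likeness of pattern was measured as the SD, over the 11 mice, of the log2 ratio between 2 miRNAs, which is small when they move together. This measure is also small when neither moves far. It favours abundant miRNAs, whose counting error is small, and all miRNAs of a mouse share a lane. miR-30a and miR-30d were nearest to each other of all 204 other miRNAs, with an SD of 0.107. miR-30b was nearest to miR-30e, with an SD of 0.122. miR-30c stood at 0.429 from miR-30a, 0.481 from miR-30d, 0.502 from miR-30e and 0.565 from miR-30b, each above its median over all miRNAs of 0.361.

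Outside the family, miR-676 (SD 0.156), miR-15a (SD 0.176) and miR-301a (0.178) were most like miR-30c, with log2 changes of -0.47, -0.36 and -0.52 at the high dose. Of these, miR-676 and miR-301a passed there (edgeR adjusted p = 0.0146 and 0.00193) and miR-15a did not (0.0901). Most like miR-30e were let-7f (SD 0.0847), miR-24 (0.109) and miR-32 (0.126). miR-99b (0.124), let-7c (0.132) and let-7f (0.145) were most like miR-30b. Nearest to miR-30a were miR-32 (0.133), miR-29c (0.134) and miR-29b (0.144), and to miR-30d miR-26b (0.136), miR-29a (0.139) and miR-32 (0.155). A small SD did not always mean a like change. At the high dose miR-30a stood at 0.27, miR-32 at 0.30, miR-29c at 0.12 and miR-29b at -0.0064.

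Among miRNAs grouped by the number in their name, 6 groups had 3 or more detected probes, namely let-7, miR-29, miR-30, miR-34, miR-125 and miR-200. The miR-30 group was the one of these 6 with calls in both directions at the high dose. Its log2 changes spanned 1.24 units there, against 0.91 for let-7 (8 members), 0.51 for miR-125 (4 probes, both arms), 0.43 for miR-34 (4 probes, both arms), 0.38 for miR-200 (3) and 0.24 for miR-29 (3). Whether these spans differ was not tested. Families whose members carry different numbers fall outside this grouping. In that of miR-15 and miR-16, miR-322 stood at -1.02 (edgeR adjusted p = 0.000513) and miR-195 at 0.31 (edgeR adjusted p = 0.334) at the high dose. These lie further apart than the ends of the miR-30 group.

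The tissue label was checked against marker miRNAs. Of 7 epithelial markers (miR-200a and others) 7 were detected, of 5 ciliated cell markers 3, and both smooth muscle markers (miR-143 and miR-145). Sums of normalized counts were taken over all listed markers, detected or not. For these lists they overlapped between control and high dose mice. Epithelial sums were 35261 to 37221 in controls and 34524 to 39491 at the high dose, ciliated sums 22287 to 32376 and 21403 to 27699, and smooth muscle sums 42288 to 54233 and 40614 to 50989. Leukocyte markers, 5 of 5 detected, summed to 3905 to 5364 in controls and 3676 to 4424 at the high dose. Erythroid markers, 3 of 3 detected, summed to 1425 to 4188 and 2250 to 3134, and endothelial markers, 2 of 2 detected, to 4840 to 6182 and 5329 to 6957. Striated muscle markers, 2 of 4 detected, summed to 1135 to 1292 in controls and 487 to 1195 at the high dose. These sums include the undetected miR-133b and miR-206, and the ciliated sums include the undetected miR-449b and miR-449c. No marker was at 0 in all lanes, but probes below background also count above 0, so this does not show that a marker was present. Among the markers, 1 epithelial miRNA (miR-203, log2 change 1.58) and 1 endothelial miRNA (miR-126-5p, 0.71) passed as higher at the high dose. None passed as lower. Both detected striated muscle markers stood lower without passing, miR-1 at -0.78 (edgeR adjusted p = 0.122) and miR-133a at -0.34 (edgeR adjusted p = 0.112). In whole oviduct, fewer cells of a type and less miRNA per cell cannot be told apart.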

How the data were processed

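The labels describe separate mice, each counted once. The table deposited by the authors held 626 probes with barcode counts, treated as estimated counts because a lane measure with decimals shares the columns. Probe values were whole numbers, so rounding changed nothing. No normalization by the authors and no counting software is given in the sources used here. Detection required, in at least 3 lanes, a count over the mean of the 8 negative controls plus 2 of their SD. Counts were scaled with TMM and tested with edgeR 4.0.16 under R 4.3.3, fitting 1 coefficient per group to the 11 mice, with Benjamini-Hochberg adjustment over 205 miRNAs. Standard errors were the log2 change divided by the square root of F. DESeq2 1.42.0, limma 3.58.1 (voom) and the analysis of variance named in the design text were alternatives.

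The fit was tested on simulated counts. In 5 sets of 40 changed miRNAs among 205, the high dose comparison recovered 100% of changes of 1 log2 unit and 58% of 0.5, and the low dose comparison 100% and 57%.

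Members and lists were chosen with earlier results of these data known. The named miRNAs are the members, the miR-384 probes, and for each member the 3 miRNAs outside the family with the smallest SD of the log2 ratio. Markers are named besides, as are miR-322 and miR-195 from a family of different numbers. Other families were to be grouped by seed, but older probe names do not give the arm, so the number in the name was used, arms together. Member probes, whose names give no arm, were read as the 5p strands.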

Additional observations from a re-analysis of the deposited data

How the results depend on the processing

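Of 420 member values recomputed under 28 alternatives, 355 kept their direction and their side of the threshold, 22 no longer passed, 23 newly passed and 20 changed sign. The low dose count of 1 became 4 with nCounter-style scaling, total count, TMM without the members, the stricter filter, background subtraction, DESeq2 and an adjusted p under 0.10. These called 17 to 24 miRNAs in all, against 12. It became 3 with upper-quartile scaling, which lost miR-30c and gained 3 higher calls (23 in all), and 3 with the analysis of variance, 2 higher and 1 lower (18 in all). It became 0 with both mRNA scalings, positive control scaling, an adjusted p under 0.01 and without the 3 highest NEG_C lanes, and it was 0 to 1 when a mouse was left out. The high dose count of 4 became 0 with both mRNA scalings and 1 with positive control scaling, and was 3 to 4 when a mouse was left out. The count across 3 groups became 0 with both mRNA scalings and positive control scaling, 2 with no filter or an adjusted p under 0.01, 1 without the NEG_C lanes, and 2 to 4 when a mouse was left out. The count between doses was 0 under all 30 alternatives. The cause of these moves was not tested.

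Between the doses, the value of miR-30a near 0 turned to 0.024 (median-ratio scaling), 0.036 (nCounter-style), 0.013 (total count), 0.022 (TMM without the members), 0.024 (DESeq2), 0.0012 (limma-voom), 0.0014 (analysis of variance), 0.013 (compared groups alone) and 0.092 (without the NEG_C lanes), and ran from -0.078 to 0.049 with a mouse left out. With 4 mRNA probes, miR-30a at the high dose turned to -0.086, and between the doses miR-30d to -0.036 and miR-30e to -0.098. With 3 mRNA probes these last became -0.0049 and -0.071.

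With the replicate number as a block, the counts were 1 at the low dose, 4 at the high dose, 0 between doses and 3 across groups, and miR-30a between the doses was 0.00064. The titles do not state that the numbers pair the mice. Deviations of same-numbered mice from their group means correlated above 0.1 in 2 of 10 pairs (-0.29 to 0.40). With so few mice per group, these correlations cannot exclude a pairing.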
